A study of Mus musculus with 19 samples.

Results

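Prg2, Epx, Ear1, Ear2, Siglecf, Cebpe and Alox15 are genes of the granules and the identity of eosinophils. They were chosen by name, and all 7 were found among the 49585 genes of the count table. Their reads were counted in whole lung of 5 Has2+/- OVA mice, 5 WT OVA mice, 4 Has2+/- saline mice and 5 WT saline mice, with 1 library per mouse. All were female Balb/c mice aged 6 to 8 weeks at the start, and Has2+/- mice carried 1 disrupted allele of Has2, a hyaluronan synthase gene, in all cells. OVA mice were sensitized with ovalbumin in aluminum hydroxide and then challenged through the nose for 8 weeks. Saline mice were injected and challenged with saline only, so OVA and saline mice also differed in the adjuvant.

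Eosinophils mature in the bone marrow under GATA and C/EBP transcription factors and interleukin-5, and enter allergic airways along gradients of eotaxins, which bind the receptor CCR3. Their granules hold a few very abundant basic proteins, which are major basic protein, eosinophil peroxidase and ribonucleases, and most granule protein mRNA is made in the marrow before the cell matures. In mouse lung Siglec-F and Ear ribonucleases are known from alveolar macrophages as well as from eosinophils, and Alox15 from both eosinophils and macrophages. In whole lung RNA, a change in the number of cells of a type cannot be told apart from a change in RNA per cell.

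Counts per library ranged between 4446534 and 7048676 (median 5493263). Libraries carry the running number of their column names, 15 to 19 for Has2+/- OVA, 10 to 14 for WT OVA, 6 to 9 for Has2+/- saline and 1 to 5 for WT saline. Has2 had 1 to 10 reads per library in the whole series, which was too few to check the genotypes. Libraries 7, 9 and 19 stood apart, with a spread of 0.337, 0.350 and 0.307 around their group means over all genes tested (SD on the log2 scale), against 0.225 to 0.287 in the others. The lung markers Cldn18, Hopx and Ager were present at 790 or more reads in every library. Levels are given as reads and as CPM (counts scaled to equal library size). A gene was called when edgeR gave an adjusted p under 0.01 over the 14495 genes tested and a fold above 1.2. P-values measure the spread between mice of a group.

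Prg2 encodes major basic protein, the core of the eosinophil granule (mm10, chr2:84980461-84983632, plus strand). It was read 6, 14, 6, 11 and 6 times in the Has2+/- OVA libraries, and 6, 31, 12, 39 and 7 times in the WT OVA libraries. It was read 2, 0, 0 and 2 times in the Has2+/- saline libraries, and 0, 2, 0, 1 and 0 times in the WT saline libraries. Every OVA library was therefore above every saline library, and within WT OVA libraries 11 and 13 stood above the rest. Mean levels in OVA lungs were 1.5 ± 0.681 CPM for Has2+/- and 3.51 ± 2.59 CPM for WT mice, against 0.181 ± 0.218 CPM for Has2+/- and 0.112 ± 0.162 CPM for WT mice in saline lungs (SD, here and for the other genes over 5, 5, 4 and 5 libraries). Prg2 rose in WT OVA against WT saline lungs by 4.76 on the log2 scale (SE 0.76, adjusted p = 6.1e-05), and by 5.70 without WT saline library 2. With 95 reads against 3, the ratio of the summed and scaled reads was 33.0, with an exact 95% interval of 10.96 to 163 that covers counting error only. For Has2+/- OVA against Has2+/- saline lungs the log2 fold change was 2.93, with a 95% confidence interval of 1.17 to 4.70, and Prg2 was not called (adjusted p = 0.0124). DESeq2 called it there (adjusted p = 0.0042). It was also called without library 10 or without library 14, with adjusted p of 0.0087 to 0.0094. Prg2 passed the filter on low counts only through its reads in OVA libraries, and it fell under the filter when library 11, 12, 13 or 16 was left out.

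Epx encodes eosinophil peroxidase, which uses hydrogen peroxide to oxidize halides (chr11:87864000-87875536, minus strand). It was read 2, 4, 2, 5 and 0 times in Has2+/- OVA, and 1, 6, 3, 8 and 4 times in WT OVA libraries. It was read 0 times in each of the 4 Has2+/- saline libraries, and 0, 1, 1, 0 and 2 times in WT saline libraries. OVA and saline libraries overlapped in both genotypes, through Has2+/- OVA library 19 and WT OVA library 10. The 39 reads in all were under the filter, so Epx was compared by permuting the libraries (exact, two-sided), with p-values adjusted over 5 comparisons. The level was 0.811 ± 0.456 CPM in WT OVA against 0.138 ± 0.136 CPM in WT saline lungs (SD, n = 5 each), a difference of 0.674 CPM with an exact p of 0.0159 (adjusted p = 0.0794). It was 0.439 ± 0.326 CPM in Has2+/- OVA lungs, with 13 reads, against 0 reads in Has2+/- saline lungs (exact p = 0.0794, adjusted p = 0.172). A count of 0 allows up to 3 reads over the group, or 0.132 CPM. The smallest p possible here was 0.00794 for 5 against 5 libraries and 0.0159 for 5 against 4. None of the 5 Epx comparisons passed an adjusted p of 0.05 in the permutation test. In edgeR with no filter, the log2 fold change was 2.34 in WT OVA against WT saline lungs (adjusted p = 0.0241). It was 4.38 in Has2+/- OVA against Has2+/- saline lungs (adjusted p = 0.0144), with 0 reads in the saline group. Has2+/- OVA lungs had 1.49 against WT saline (adjusted p = 0.229) and -0.86 against WT OVA lungs (adjusted p = 0.755). That fit called Epx in none of the 5 comparisons.

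**Figure D1:**
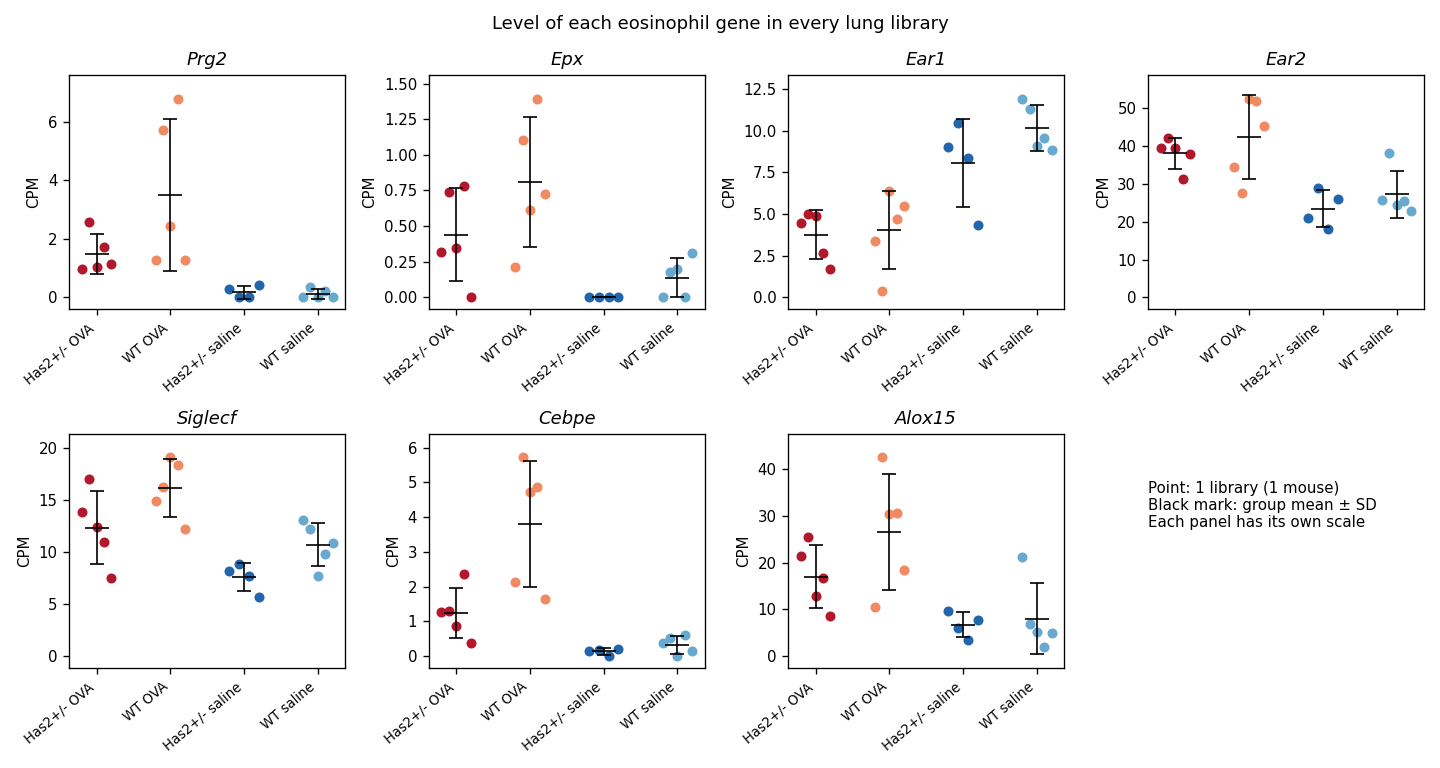
Level of the 7 genes in each of the 19 libraries in CPM, 1 point per mouse, with the group mean and SD in black and a separate scale for each gene. Prg2 and Cebpe were near 0 in saline lungs, the mean of Ear1 was lower in both OVA groups, and Ear2, Siglecf and Alox15 had clear levels in all 4 groups.

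Ear1 and Ear2 encode eosinophil-associated ribonucleases of the RNase A family, which multiplied into many copies in rodents. Ear1 lies at chr14:43818765-43875517 on the minus strand and Ear2 at chr14:44102654-44103534 on the plus strand. Their coding sequences, of 465 and 468 bases without the stop codon, were identical at 445 of 468 aligned positions (95.1%), with 20 mismatches and 3 gap positions. The following 90 bases (coding positions 81 to 170, GENCODE transcripts Ear1-201 and Ear2-201 on GRCm38) hold 8 of the differences, in capitals, and are shown because reads of the 2 genes can be told apart only at such bases. They lie at chr14:43819240-43819329, minus strand, in Ear1 and at chr14:44102967-44103056, plus strand, in Ear2.
Ear1: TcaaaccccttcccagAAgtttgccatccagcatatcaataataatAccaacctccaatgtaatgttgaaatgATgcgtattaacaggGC
Ear2: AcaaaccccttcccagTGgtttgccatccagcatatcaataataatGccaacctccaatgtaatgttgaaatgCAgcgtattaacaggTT

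The likeness goes on before the start of transcription. The 250 bases upstream of each gene (RefSeq, GRCm38.p6) were identical at 246 of 252 aligned positions (97.6%), with 2 mismatches and 4 gap positions, again in capitals. They lie at chr14:43819640-43819889, minus strand, for Ear1 and at chr14:44102404-44102653, plus strand, for Ear2, and are shown because the 2 genes moved in opposite directions in WT mice. The RefSeq start of Ear1 lies within the longer span given for the gene in the count table.
Ear1 upstream: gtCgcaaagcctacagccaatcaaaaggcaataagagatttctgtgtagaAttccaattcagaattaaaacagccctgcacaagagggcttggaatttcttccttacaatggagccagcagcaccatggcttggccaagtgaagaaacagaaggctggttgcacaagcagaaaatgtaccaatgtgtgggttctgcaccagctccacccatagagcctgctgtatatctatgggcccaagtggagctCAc
Ear2 upstream: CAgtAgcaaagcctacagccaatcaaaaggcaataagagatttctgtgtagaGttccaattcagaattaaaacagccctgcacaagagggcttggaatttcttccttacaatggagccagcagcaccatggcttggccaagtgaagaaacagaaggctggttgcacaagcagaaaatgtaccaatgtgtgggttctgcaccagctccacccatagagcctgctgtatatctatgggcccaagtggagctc

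A promoter of Epx and of Siglecf was also in the RefSeq table, and those of Prg2, Cebpe and Alox15 were not used here. The following motifs were searched on both strands in the 250 bases upstream. A C/EBP motif, TTNNGNAA, had 1 match in Ear1, 1 in Ear2, 2 in Siglecf and 0 in Epx, and it is found in 36.8% of 32851 promoters. The GATA motif (AGATAA or AGATAG or TGATAA or TGATAG, found in 26.5% of promoters) and the STAT6 motif (TTCNNNNGAA, found in 5.85%) had 0 matches in each of the 4. The TATAAA box, found in 12.4%, had 1 match in Epx and 0 in the other 3.

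Ear1 was read 28, 27, 28, 17 and 9 times in Has2+/- OVA libraries, and 16, 2, 31, 27 and 30 times in WT OVA libraries. In saline lungs it was read 62, 56, 50 and 20 times in Has2+/- and 65, 64, 46, 46 and 56 times in WT libraries. Every WT OVA library lay below every WT saline library, while Has2+/- saline library 9 lay within the range of the Has2+/- OVA libraries. Mean levels in OVA lungs were 3.76 ± 1.47 CPM for Has2+/- and 4.06 ± 2.33 CPM for WT mice, against 8.05 ± 2.62 CPM for Has2+/- and 10.13 ± 1.38 CPM for WT mice in saline lungs (SD). Ear1 fell in WT OVA against WT saline lungs, with a log2 fold change of -1.32 (SE 0.36, adjusted p = 0.0070). For Has2+/- OVA against Has2+/- saline lungs the log2 fold change was -1.10, with a 95% interval of -1.90 to -0.31 (adjusted p = 0.0322), and it was called only without library 11 (adjusted p = 0.0040). The WT call was close to the threshold: without library 1, 2, 3, 4, 5, 10 or 13 the adjusted p was 0.0112 to 0.0184, at log2 fold changes of -1.38 to -1.25.

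Ear2 went the other way. It was read 246, 228, 225, 200 and 197 times in Has2+/- OVA libraries, and 162, 149, 256, 298 and 249 times in WT OVA libraries. In saline lungs it was read 144, 154, 108 and 119 times in Has2+/- and 140, 216, 123, 122 and 144 times in WT libraries. The Has2+/- groups did not overlap in CPM, with 31.4 or more in OVA and 28.8 or less in saline libraries. The WT groups overlapped through WT saline library 2, at 38.1 CPM, which lay above WT OVA libraries 10 and 11 (34.4 and 27.5 CPM). Mean levels in OVA lungs were 38.0 ± 4.05 CPM for Has2+/- and 42.3 ± 11 CPM for WT mice, against 23.4 ± 4.84 CPM for Has2+/- and 27.2 ± 6.18 CPM for WT mice in saline lungs (SD). Ear2 rose by 0.71 on the log2 scale in Has2+/- OVA against Has2+/- saline lungs (95% interval 0.32 to 1.09, adjusted p = 0.0068) and by 0.64 in WT OVA against WT saline lungs (0.28 to 1.00, adjusted p = 0.0068). The calls were lost without library 6, 8, 15, 16, 17 or 19 in Has2+/- (adjusted p 0.0113 to 0.0296) and without library 1, 3, 4, 5, 12, 13 or 14 in WT (adjusted p 0.0145 to 0.0249). The rise stayed between 0.60 and 0.71 in the Has2+/- and between 0.55 and 0.62 in the WT fits that lost it.

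Since the 2 genes lie on similar sequence and moved apart, the share of Ear1 among their summed reads was examined after the values had been seen. It restates the opposite changes of the 2 genes and is given as a description, with no test. Ear1 made up 10.2, 10.6, 11.1, 7.83 and 4.37% in Has2+/- OVA libraries, and 8.99, 1.32, 10.8, 8.31 and 10.8% in WT OVA libraries. It made up 30.1, 26.7, 31.6 and 14.4% in Has2+/- saline libraries, and 31.7, 22.9, 27.2, 27.4 and 28.0% in WT saline libraries. All 10 OVA libraries were below all 9 saline libraries. The means differed by -16.9 points in Has2+/- (8.82 ± 2.78% in OVA against 25.7 ± 7.82% in saline, SD). They differed by -19.4 points in WT mice (8.04 ± 3.91% in OVA against 27.4 ± 3.15% in saline, SD). Has2+/- OVA differed from WT saline lungs by -18.6 points. Between Has2+/- OVA and WT OVA lungs the share differed by 0.780 points, and between Has2+/- saline and WT saline lungs by -1.73 points. With the reads of both genes summed, the log2 fold change was 0.42 in Has2+/- (adjusted p = 0.0936) and 0.32 in WT mice (adjusted p = 0.161), and neither was called.

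**Figure D2:**
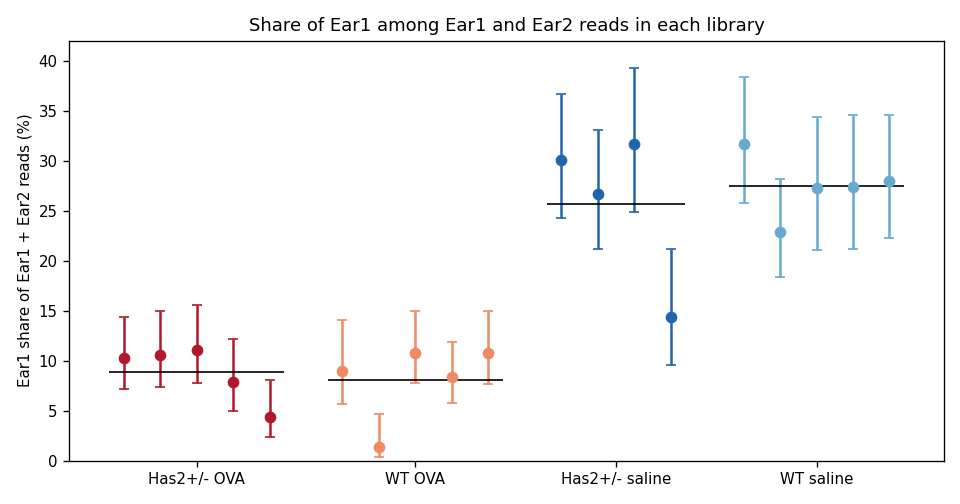
Share of Ear1 among the reads of Ear1 and Ear2 in each library (points, %), with the 95% Wilson interval of each library (bars, counting error only) and the group mean (black lines). The highest OVA library had 11.1% and the lowest saline library 14.4%, and WT OVA library 11 was the lowest of all at 1.32%.

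The counts of both genes are uncertain because their reads are shared with copies. Of the 36-base windows of Ear1, the length of a read, 69.6% also occurred in transcripts of another gene, and 35.7% occurred in Ear2. Of the windows of Ear2, 53.9% occurred elsewhere, 35.4% in Ear1. The pseudogenes Ear-ps9, Ear-ps2 and Ear-ps12 had 0 reads in all libraries, and the annotated Ear1 gene spans Ear-ps12 and shares 17 exonic bases with Ear-ps9. How reads that matched several genes were placed is not given in the sources used here. Prg2, Epx, Cebpe and Alox15 had 0 shared windows, and Siglecf shared 20 of 2883 (0.694%).

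Siglecf encodes the sialic acid receptor Siglec-F, an inhibitory receptor whose engagement can lead to eosinophil death (chr7:43351341-43359531, plus strand). It was read 86, 92, 71, 70 and 39 times in Has2+/- OVA libraries, and 70, 88, 93, 105 and 67 times in WT OVA libraries. It was read 56, 47, 46 and 26 times in Has2+/- saline libraries, and 71, 69, 39, 47 and 69 times in WT saline libraries. In CPM the OVA and saline groups of both genotypes overlapped, through library 19 in Has2+/- and library 14 in WT OVA. Mean levels in OVA lungs were 12.3 ± 3.52 CPM for Has2+/- and 16.1 ± 2.75 CPM for WT mice, against 7.57 ± 1.36 CPM for Has2+/- and 10.7 ± 2.08 CPM for WT mice in saline lungs (SD). The log2 fold change was 0.70 in Has2+/- (95% interval 0.27 to 1.13, adjusted p = 0.0147) and 0.59 in WT mice (0.20 to 0.97, adjusted p = 0.0186), and neither was called. Both were called by DESeq2 (adjusted p = 0.0071 and 0.0098) and both without library 19 (adjusted p 0.0025 in Has2+/-). The WT difference was also called without library 14.

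Cebpe encodes C/EBP epsilon, which is needed for the late steps of eosinophil and neutrophil maturation and for their secondary granules (chr14:54710363-54712174, minus strand). It was read 8, 7, 5, 15 and 2 times in Has2+/- OVA libraries, and 10, 31, 23, 28 and 9 times in WT OVA libraries. It was read 1, 1, 0 and 1 times in Has2+/- saline libraries, and 2, 3, 0, 3 and 1 times in WT saline libraries. OVA and saline libraries of the same genotype did not overlap, but Has2+/- OVA library 19, at 0.384 CPM, was within the range of WT saline. Mean levels in OVA lungs were 1.24 ± 0.726 CPM for Has2+/- and 3.82 ± 1.81 CPM for WT mice, against 0.137 ± 0.096 CPM for Has2+/- and 0.335 ± 0.258 CPM for WT mice in saline lungs (SD). Cebpe rose by 3.06 on the log2 scale in Has2+/- OVA against Has2+/- saline lungs (95% interval 1.45 to 4.67, adjusted p = 0.0052). With 37 reads against 3, the ratio of the summed and scaled reads was 9.72, with an exact 95% interval of 3.08 to 49.3. It rose by 3.45 in WT OVA against WT saline lungs (95% interval 2.36 to 4.54, adjusted p = 3.75e-05). The WT call held in each of the 19 fits that left out 1 library, at 3.18 to 3.75. The Has2+/- call was lost without library 6, 7, 8 or 18, with log2 fold changes of 2.68 to 3.23 and adjusted p of 0.0130 to 0.0183, and without libraries 7, 9 and 19 together it was 3.90 (adjusted p = 0.0108). Cebpe, like Prg2, passed the filter only through OVA libraries.

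Alox15 encodes an arachidonate lipoxygenase that makes lipid mediators in eosinophils and macrophages (chr11:70344152-70352031, minus strand). It was read 133, 138, 73, 107 and 45 times in Has2+/- OVA libraries, and 49, 230, 148, 176 and 101 times in WT OVA libraries. It was read 67, 32, 21 and 36 times in Has2+/- saline libraries, and 116, 39, 26, 9 and 31 times in WT saline libraries. WT saline library 1, at 21.3 CPM, lay above WT OVA libraries 10 and 14, while the other WT saline libraries had 6.88 CPM or less. The Has2+/- groups overlapped through OVA library 19, at 8.64 CPM, and saline library 6, at 9.74 CPM. Mean levels in OVA lungs were 17 ± 6.70 CPM for Has2+/- and 26.5 ± 12.3 CPM for WT mice, against 6.77 ± 2.66 CPM for Has2+/- and 8.01 ± 7.63 CPM for WT mice in saline lungs (SD). Alox15 rose in WT OVA against WT saline lungs by 1.72 on the log2 scale (95% interval 0.79 to 2.65, adjusted p = 0.0052). For Has2+/- OVA against Has2+/- saline lungs the log2 fold change was 1.32 (0.29 to 2.36, adjusted p = 0.0495), and it was not called. The WT call was lost without library 2, 3, 4, 5, 11, 12 or 13, with adjusted p of 0.0111 to 0.0207 and log2 fold changes of 1.48 to 1.67, and the estimate was 2.47 without library 1.

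Per kilobase of exon, which allows levels of different genes to be compared, Ear2 had the highest mean level of the 7 genes in each group. It had 52.9 ± 5.63 CPM per kb in Has2+/- OVA and 58.9 ± 15.3 in WT OVA lungs, against 32.6 ± 6.73 in Has2+/- saline and 37.9 ± 8.60 in WT saline lungs (SD). The place behind it was taken by Alox15 in OVA lungs (6.93 CPM per kb in Has2+/- and 10.8 in WT) and by Ear1 in saline lungs (11.03 and 13.9). Epx was lowest in each group, at 0.160 CPM per kb in Has2+/- OVA and 0.297 in WT OVA lungs. Prg2 was at 1.79 and 4.18 CPM per kb in the Has2+/- OVA and WT OVA lungs. By group means, the transcripts of major basic protein and eosinophil peroxidase were therefore among the rarer of the 7 in OVA lungs, beside Cebpe at 0.998 and 3.08. The order is not firm for Prg2. In WT OVA libraries it ranged from 1.52 to 8.11 CPM per kb, which overlapped Ear1 (0.505 to 8.70) and Siglecf (4.38 to 6.83).

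In WT OVA against WT saline lungs, 4 of the 7 genes were called higher (Prg2, Ear2, Cebpe and Alox15) and 1 lower (Ear1), where 21.9% of all genes tested were called, 12% higher and 9.95% lower. In Has2+/- OVA against Has2+/- saline lungs 2 were called higher (Ear2 and Cebpe) and 0 lower, where 18.2% of all genes were called, 10.5% higher and 7.72% lower. CPM did not overlap for Prg2, Ear1 and Cebpe in WT mice (27.4% of all genes) and for Prg2, Ear2 and Cebpe in Has2+/- mice (18.3%). These counts are no support for the genes as a set, since Prg2 and Cebpe reached the test only through OVA libraries. Has2+/- OVA lungs were also set against WT saline lungs, which share their controls with the WT comparison. There Prg2 was called higher (log2 fold change 3.51, adjusted p = 0.0036, and 4.46 without WT saline library 2) and Ear1 lower (-1.42, adjusted p = 0.0042), with 20.4% of all genes called, 10.9% higher and 9.56% lower, and these were the 2 of the 7 genes whose CPM did not overlap (24.9% of all genes). Prg2 was not called there without library 1, 3 or 5 (adjusted p 0.0107 to 0.0121), nor Ear1 without library 1, 18 or 19 (0.0116 to 0.0143). Ear2 (0.48, adjusted p = 0.0377), Cebpe (1.87, 0.0230), Alox15 (1.08, 0.0765) and Siglecf (0.20, 0.448) were not called. Alox15 was called there without WT saline library 1, at 1.84 (adjusted p = 0.0025), and Ear2 without WT saline library 2, at 0.63 (adjusted p = 0.0065).

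**Figure D3:**
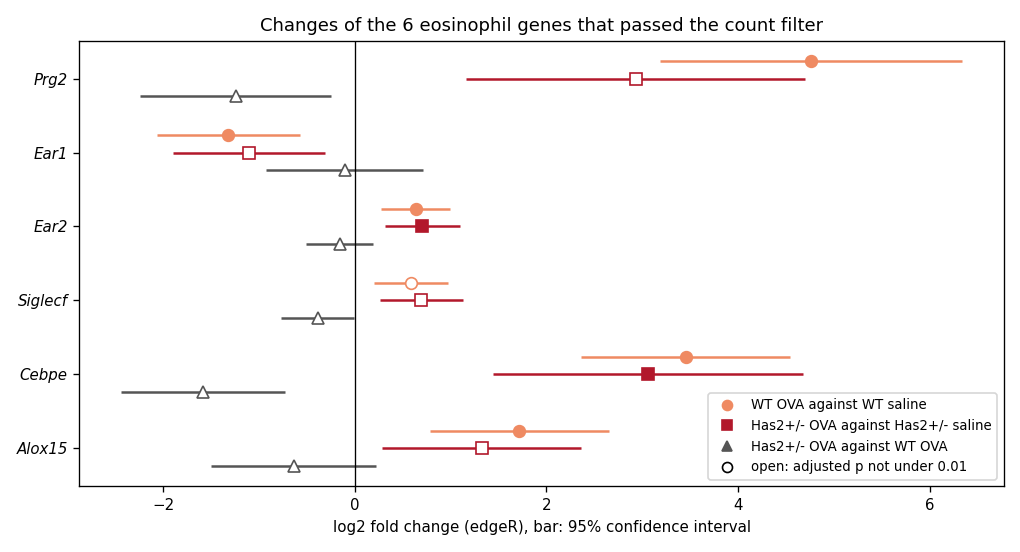
Log2 fold changes of the 6 genes that passed the filter in 3 comparisons, with 95% confidence intervals (bars), filled where the gene was called. Cebpe and Ear2 were called in both OVA comparisons, and the 6 estimates for Has2+/- OVA against WT OVA (triangles) were all below 0 and none was called.

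Setting Has2+/- OVA beside WT OVA lungs asks whether the loss of 1 Has2 allele altered these genes in allergic lungs. All 6 genes tested had lower estimates in Has2+/- OVA lungs, and none was called, where 0% of all genes were called by edgeR. Estimates were above 0 for 51.0% of all genes. The 6 genes share the scaling of each library, so their signs are not independent. Of all genes 1120 (7.73%) had an unadjusted p under 0.05, and DESeq2 called 8. The estimate for Cebpe was -1.58 (95% interval -2.43 to -0.73, unadjusted p = 9.4e-04, adjusted p = 0.310), and 4 of the 5 Has2+/- OVA libraries were below all WT OVA libraries. That for Prg2 was -1.24 (-2.24 to -0.25, unadjusted p = 0.0167, adjusted p = 0.542), with 3 of 5 libraries below all WT OVA libraries. Siglecf had -0.38 (unadjusted p = 0.0478, adjusted p = 0.640), Alox15 -0.64 (adjusted p = 0.725), Ear2 -0.16 (adjusted p = 0.854) and Ear1 -0.11 (adjusted p = 0.969). The estimate of Ear1 was above 0 when library 12, 14 or 19 was left out, at 0.027 to 0.10. Epx had 0.439 CPM in the Has2+/- and 0.811 CPM in the WT OVA lungs (exact permutation p = 0.183, adjusted p = 0.228). None of the 7 genes had groups that did not overlap, against 1.90% of all genes.

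In Has2+/- saline against WT saline lungs edgeR again called 0% of genes, with 1006 at an unadjusted p under 0.05 and 1 called by DESeq2. The estimates were -0.49 for Siglecf (unadjusted p = 0.0285, adjusted p = 0.682), -1.19 for Cebpe, 0.58 for Prg2, -0.32 for Ear1, -0.22 for Ear2 and -0.24 for Alox15, none of them called, and none of the 7 genes had groups that did not overlap (1.70% of all genes). The interaction of genotype and OVA, which tests whether the OVA effect differs between the genotypes, was called for 0% of genes by edgeR, with 594 at an unadjusted p under 0.05 and 0 called by DESeq2. Its estimate was -1.83 for Prg2 (95% interval -5.05 to 1.40, and -2.77 without library 2 or -1.24 without library 9), -0.39 for Cebpe (-4.10 to 3.32), -0.39 for Alox15 (-1.15 without library 1, -0.13 without library 6), 0.21 for Ear1, 0.11 for Siglecf and 0.069 for Ear2, with an adjusted p of 0.99987 for all 6. Calls made in 1 genotype alone, such as that of Ear1 or Alox15 in WT mice, are therefore not shown to differ between the genotypes.

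Within groups, the deviations of the 7 genes from their group means were compared over the 19 libraries in 21 pairs. The r was positive in 17 pairs, and none passed an adjusted p of 0.05 in a permutation test within groups. Prg2 and Cebpe had the highest r, 0.697 (permutation p = 0.00913, adjusted p = 0.134, rho = 0.697 with adjusted p = 0.0523), and 0.646 without the 2 most distant libraries. WT OVA libraries 11 and 13 were high and libraries 10 and 14 low in both genes. Saline libraries had 0 to 2 reads of Prg2 and 0 to 3 of Cebpe, so their deviations lie near the floor. In OVA libraries alone the r of Prg2 and Cebpe was 0.717 (permutation test, adjusted p = 0.126). The highest r there was that of Ear1 and Ear2, at 0.842 (adjusted p = 0.0806). Over the 19 libraries Ear1 and Ear2 had an r of 0.613 (adjusted p = 0.134), which fell to 0.459 without libraries 11 and 19. They share reads, so the 2 counts are not independent. Prg2 and Epx, which both encode granule proteins, had an r of 0.601 (adjusted p = 0.134), and 0.460 without libraries 11 and 13. All points share the scaling of their library.

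**Figure D4:**
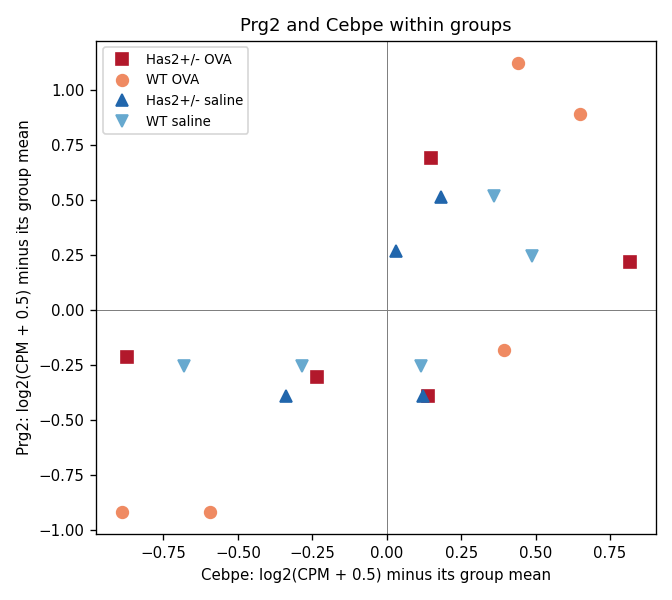
Deviation of Prg2 from its group mean (y axis) against that of Cebpe (x axis), each as log2(CPM + 0.5), 1 point per library. The WT OVA libraries span the widest range on the y axis, with libraries 11 and 13 at the upper right and libraries 10 and 14 at the lower left.

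Immunoglobulin and T cell receptor segments, genes with Gm or Rik names, and the other genes of the set were left out of the next comparison. Among the remaining genes tested, those with deviations most like each gene over the 19 libraries are given by r alone, with no test. They were Gapt, Sh2b2 and BC017643 for Prg2 (0.843 to 0.790), Tnfaip8, Nupl1 and Rrm2 for Cebpe (0.829 to 0.805) and F5, Nubp2 and Tom1 for Alox15 (0.871 to 0.782). Those of Ear1 were Cntn4, Emp1 and Plod2 (0.885 to 0.847), those of Ear2 Ccdc80, Cog2 and Slc39a9 (0.838 to 0.780), and those of Siglecf Stt3a, Yipf5 and Copa (0.795 to 0.793). Ear1 and Ear2 had no gene in common among them.

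Of 20 other genes known from eosinophils, 12 were tested, and 10 of them were called higher in both OVA comparisons and 0 lower, where 10.5% of all genes were called higher in Has2+/- and 12% in WT mice. Rnase2a, Ccr3 and Il5ra reached the count minimum in 1, 0 and 1 of the 9 saline libraries and so passed the filter through OVA libraries. The median log2 fold change of the 12 was 1.40 in Has2+/- and 1.40 in WT mice, against -0.014 and -0.0012 over all genes. Rnase2a, an RNase A gene like Ear1 and Ear2, was read 70, 150, 103, 108 and 88 times in Has2+/- OVA and 129, 129, 88, 277 and 125 times in WT OVA libraries. It was read 0, 0, 6 and 7 times in Has2+/- saline and 1, 15, 0, 3 and 8 times in WT saline libraries, so that OVA and saline libraries did not overlap. Its rise was 4.92 on the log2 scale in Has2+/- and 4.81 in WT mice (SE 0.61 and 0.49), while Ear2 rose by less than 1 and Ear1 was lower. Ccr3, the eotaxin receptor, rose by 4.26 in Has2+/- and 3.89 in WT mice. Il5ra, the interleukin-5 receptor chain, rose by 1.98 and 2.54. Csf2rb, a signalling chain shared with other receptors, and Csf2rb2 rose by 1.86 and 1.99 in Has2+/- and by 1.82 and 1.83 in WT mice. Il1rl1, the receptor of interleukin-33, rose by 1.202 and 1.223, and Csf2ra, Cd300lf, Itga4 and Cd24a were called as well. Ltc4s and Gata2 were not called, with values below 0. Of the 12, 0 were called in Has2+/- OVA against WT OVA lungs, and 9 of 12 had estimates below 0, with a median of -0.26. Over all genes the median there was 0.0041, with 51.0% above 0. The other 8 genes were under the filter, among them Prg3 (4 reads in all libraries), Ear6 (8) and Ear10 (2).

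**Figure D5:**
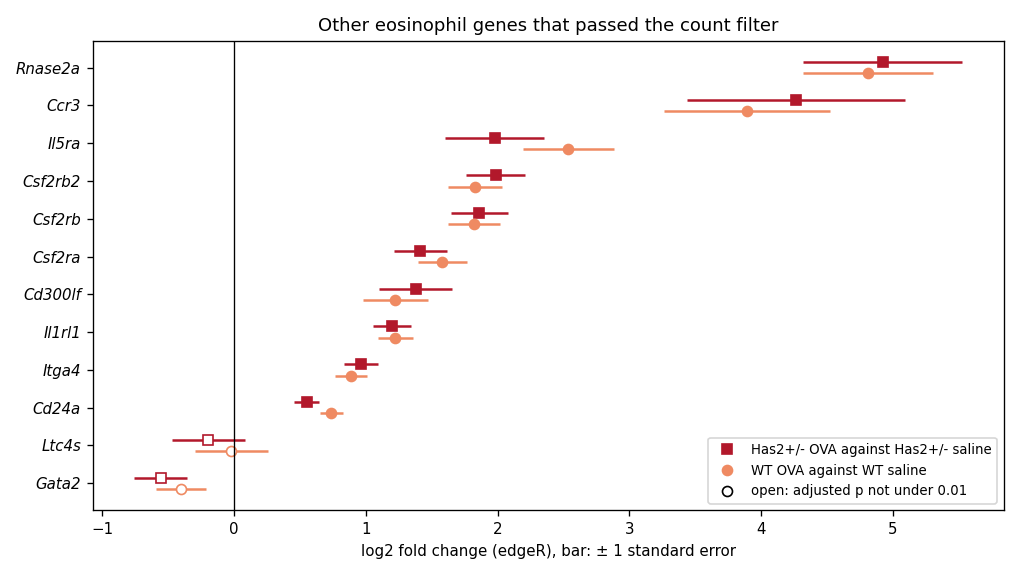
Log2 fold changes of the 12 other eosinophil genes that passed the filter, with ± 1 standard error (bars), in Has2+/- OVA against Has2+/- saline (squares) and WT OVA against WT saline lungs (circles), filled where the gene was called. The 10 genes from Rnase2a at the top to Cd24a were called in both, and Ltc4s and Gata2 in neither.

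Among genes of eosinophil growth and recruitment, 3 of 9 tested were called higher in Has2+/- and 4 in WT mice, with 0 lower and medians of 0.80 and 0.40. Over all genes, 10.5% were called higher and 7.72% lower in Has2+/- mice, against 12% and 9.95% in WT mice. Ccl11, eotaxin-1, had 15.9 CPM in the Has2+/- and 21.2 CPM in the WT OVA lungs, against 2.30 CPM in Has2+/- saline and 2.69 CPM in WT saline lungs. It rose by 2.82 on the log2 scale in Has2+/- and 2.95 in WT mice. Il33, an epithelial alarmin, rose by 1.11 and 1.44, and the chemokine Ccl8 by 3.14 and 2.54. Cd80, a co-stimulatory ligand, rose by 1.34 in WT mice and had 0.80 in Has2+/- mice (adjusted p = 0.0584). Cd80 reached the count minimum in 3 of 9 saline libraries and so passed the filter through OVA libraries. Il5, the main growth factor of eosinophils, had 30 reads in all libraries and was not tested. Among factors of eosinophil progenitors 5 of 13 were called higher and 2 lower in Has2+/- mice, and 5 higher and 1 lower in WT mice, with medians of 0.13 and 0.21. Xbp1, which is required for eosinophil development in mice, rose by 0.95 in Has2+/- and 0.90 in WT mice. Spi1, Ikzf1 and Cebpa, factors of many blood lineages, also rose in both.

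Genes of other lung cells that can express some of the 7 genes were examined next. Beside Ear1, Ear2, Siglecf and Alox15, the list of 19 alveolar macrophage genes had 9 called higher and 4 lower in Has2+/- mice, and 8 higher and 2 lower in WT mice, and the rest were not called. Its summed level was 1696 to 2118 CPM in Has2+/- OVA and 1685 to 2613 CPM in WT OVA libraries, against 855 to 1151 CPM in Has2+/- saline and 977 to 1245 CPM in WT saline libraries. Ctsk, a lysosomal protease, rose by 4.00 in Has2+/- and 4.01 in WT mice, and Itgax, which encodes CD11c, by 2.51 and 2.44. Atp6v0d2 and Plin2 were called higher too. Over all genes, 10.5% were called higher and 7.72% lower in Has2+/- mice, against 12% and 9.95% in WT mice. Car4 and Fabp1 were called lower in both, Fabp1 at 1 to 6 reads in Has2+/- OVA and 0 to 5 in WT OVA libraries. Fabp4 and Cidec were called lower in Has2+/- mice. The defining marker Marco had 114 reads in all libraries and was not tested. Interstitial macrophage and monocyte genes had 7 of 14 called higher in Has2+/- and 11 in WT mice, with 0 lower, among them Ly6c2, Apoe and Ms4a7. The part of macrophages in the levels of the 7 genes was not tested.

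Beside Prg2, Epx and Cebpe, which other granulocytes and their progenitors can express, 1 of 9 neutrophil genes tested was called higher in both genotypes and 0 lower, a share near the 10.5% (Has2+/-) and 12% (WT) of all genes called higher. This was Retnlg, which rose by 2.58 in Has2+/- and 2.86 in WT mice, and Ltf, Mmp8 and Mmp9 were not called. The summed level of the neutrophil list was 202 to 277 CPM in Has2+/- OVA and 252 to 333 CPM in WT OVA libraries, against 146 to 291 CPM in Has2+/- saline and 181 to 248 CPM in WT saline libraries. The neutrophil genes Elane (2 reads), Ly6g (13), Camp (20), Mpo (38) and Ngp (107) were under the filter. Of 8 mast cell and basophil genes 4 were called higher and 0 lower in Has2+/- mice, and 4 higher and 1 lower in WT mice. The 4 were Hdc, which makes histamine, and the proteases Mcpt1, Mcpt2 and Tpsab1, which reached the count minimum in 0 of 9 saline libraries. Mcpt1 was read 11 to 20 times in Has2+/- OVA and 8 to 29 times in WT OVA libraries, against 0 in Has2+/- saline and 0 to 1 in WT saline libraries. The basophil protease Mcpt8 had 16 reads in all. The summed mast cell and basophil level was 266 to 360 CPM in Has2+/- OVA and 280 to 333 CPM in WT OVA libraries, against 232 to 401 CPM in Has2+/- saline and 313 to 380 CPM in WT saline libraries. Most of that sum was Kit, a receptor that is not particular to mast cells, with mean levels of 230 CPM for Has2+/- and 193 CPM for WT mice in OVA lungs, against 287 CPM for Has2+/- and 308 CPM for WT mice in saline lungs, so the sum does not show the proteases. The part of these cells in Prg2 and Cebpe was not tested.

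Interleukin-4 and interleukin-13 are known to induce Alox15. Of 19 genes known as targets of these cytokines 12 were called higher and 0 lower in each genotype, 11 of them in both, with medians of 2.37 in Has2+/- and 1.98 in WT mice. In each genotype 7 were not called. Over all genes, 10.5% were called higher and 7.72% lower in Has2+/- mice, against 12% and 9.95% in WT mice. Il4 and Il13 themselves had 49 and 25 reads in all libraries and were under the filter. The part of these cytokines in the level of Alox15 was not tested. Chil4, a chitinase-like protein, rose by 7.19 in Has2+/- and 7.51 in WT mice, and Arg1, arginase, by 3.71 and 4.87. Itln1 and Fcgbp were the other 2 genes of smallest p, and Chil4, Itln1 and Arg1 reached the count minimum in 0, 1 and 2 of 9 saline libraries. Of 10 other lipoxygenase and leukotriene genes 2 were called higher and 2 lower in Has2+/- mice, and 3 higher and 1 lower in WT mice. Alox12e rose by 2.83 in Has2+/- and 3.52 in WT mice, while Alox12, the platelet enzyme, fell by 1.14 and 0.64, and Lta4h rose by 0.32 and 0.29. Alox12e reached the count minimum in 0 of 9 saline libraries and so passed the filter through OVA libraries. Cyp4f18, which breaks down leukotriene B4, rose by 1.82 in WT mice and had 1.22 in Has2+/- mice (adjusted p = 0.0254).

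Families of the other members were set beside all genes tested. Over all genes, 10.5% were called higher and 7.72% lower in Has2+/- mice. In WT mice the shares were 12% and 9.95%. Of 7 other genes of the Siglec family 4 were called higher and 0 lower in both genotypes, with medians of 0.85 in Has2+/- and 0.99 in WT mice. These were Cd22, a sialic acid receptor found on B cells, Siglecg, Cd33 and Mag, and Cd22 rose by 1.79 in Has2+/- and 1.87 in WT mice. Of 4 other RNase A genes 2 were called higher in both, Rnase2a and Rnase6, while Ang and Rnase4 were not. Of 5 other heme peroxidases 0 were called higher and 2 lower in Has2+/- mice (Pxdn and Ptgs2), and 1 higher (Duox1) and 1 lower (Pxdn) in WT mice. Counts from 5 genes were not tested against the shares over all genes. Duox1 varied widely in WT OVA lungs, at 5.13 ± 6.56 CPM (SD) and 7 to 91 reads. It reached the count minimum in 0 of 9 saline libraries. Of 8 lung tissue genes 1 was called higher and 3 lower in Has2+/- mice and 0 higher and 3 lower in WT mice, with medians of -0.19 and -0.31, where Cldn18, Hopx and Ager fell in both.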

How the data were processed

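Lung RNA was taken 24 h after the last challenge. The authors sequenced paired reads of 36 bases, mapped them to mm10 with CLC Genomics Workbench 10.1.1 and deposited counts per gene, used here as deposited. Whether counting used strand is not given in the sources used here. In the table, 38 columns of scaled or transformed values, 12 columns of group means and 41 columns of the authors' own comparisons (fold changes and p-values of EDGE tests and ANOVA) were not used.

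Counts were fitted with edgeR 4.0.16 (limma 3.58.1, R 4.3.3): TMM factors, filterByExpr (10 counts, 15 in total, share 0.7), a mean per group, quasi-likelihood tests with 15 residual degrees of freedom, and Benjamini-Hochberg adjustment over 14495 genes. The fit was tested on simulated data, with changes placed only in genes averaging at least 10 reads per library. Prg2 and Cebpe lay below this level, so the simulation did not cover changes like theirs. Permutation tests were exact or used 100000 resamples (SciPy 1.17.1). Deviations used log2(CPM + 0.5). Filtering favours genes high in OVA libraries, and 36-base reads limit the separation of Ear1 from Ear2. Intervals from reads cover counting error only.

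All 7 genes are named, with up to 4 genes of smallest p in WT OVA against WT saline from each list. Genes under the filter are given by reads, and the 3 genes most alike per member are those among the genes compared. Results of 1 gene the rule names are not reported here. Kit, Ptgs2, further called genes of the lists of other eosinophil genes and alveolar macrophages, and uncalled ones beside them, were named after their values were seen. Members and lists were chosen with earlier results of these data known. Alternatives were other scaling (RLE), filters (none, or 20 counts in 4 libraries), DESeq2 1.42.0, models of only the groups compared, an adjusted p under 0.05, Ear1 and Ear2 summed, and each library left out. Leaving out libraries 7, 9 and 19 together, and leave-one-out of the Ear1 share, were chosen after seeing the data. Sequences are those of GENCODE and RefSeq on GRCm38.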

Additional observations from a re-analysis of the deposited data

Results flagged for a closer look

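In 3 of 31 groups of values a single library lay far from the others of its group. Chance gives about 1 in 20 where groups are independent. These groups are not, since the Ear1 share uses the same reads as Ear1 and Ear2, so no excess over chance was shown. Ear2 was highest in WT saline library 2, at 38.1 CPM, against 22.7 to 25.7 CPM in the other WT saline libraries. Alox15 was highest in WT saline library 1, at 21.3 CPM, against 1.87 to 6.88 CPM in the others. The share of Ear1 among Ear1 and Ear2 reads was lowest in WT OVA library 11, at 1.32%, against 8.31 to 10.8% in the other WT OVA libraries.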

How the results depend on the processing

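At 4446534 to 7048676 counts per library, Prg2, Epx and Cebpe rest on 39 reads or fewer per library, and calls near the threshold depend on the set of libraries. In WT OVA against WT saline lungs 5 of the 7 genes were called; 3 were with 20 counts required in 4 libraries, 2 in a model of only these groups, 3 with Ear1 and Ear2 summed, and 1 to 6 when 1 library was left out. The stricter filter and the small model left Prg2 and Cebpe untested. In Has2+/- OVA against Has2+/- saline lungs 2 were called; 6 were at an adjusted p under 0.05, 4 with DESeq2, 1 with the stricter filter, in the small model, with Ear genes summed, and without libraries 7, 9 and 19, and 0 to 3 without 1 library. All genes called there numbered 3985 at an adjusted p under 0.05 and 1559 in the small model, against 2643. In Has2+/- OVA against WT saline lungs 2 were called; 4 were at an adjusted p under 0.05, 1 with the stricter filter or Ear genes summed, and 1 to 3 without 1 library. In Has2+/- OVA against WT OVA lungs all genes called numbered 8 with DESeq2 and 0 to 5 without 1 library, and in Has2+/- saline against WT saline lungs 1 with no filter, DESeq2 or the small model and 0 to 1 without 1 library. The difference of Epx passed an unadjusted p of 0.05 without library 19, at 0.549 CPM in Has2+/- OVA against Has2+/- saline (exact p = 0.0286, range 0.353 to 0.549 CPM over the libraries left out) and 0.411 CPM in Has2+/- OVA against WT saline (exact p = 0.0159, range 0.215 to 0.411 CPM). The sign turned in the following cases, none of them called. Ear1 with Ear2 summed gave 0.32 in WT and 0.42 in Has2+/- OVA lungs against their own saline lungs, and 0.16 in Has2+/- OVA against WT saline lungs. In Has2+/- OVA against WT OVA lungs Ear1 ranged from -0.41 to 0.10 when 1 library was left out (above 0 without 12, 14 or 19) and had 0.067 without 7, 9 and 19, and its share differed by -0.897 to 1.89 points without 1 library. In saline lungs Prg2 ranged from -0.0071 (without library 9) to 1.53 and Alox15 from -0.51 to 0.51 (without library 1), and the Ear1 share differed by -3.72 to 2.04 points. The interaction turned for Ear1 (-0.086 to 0.42), Ear2 (-0.085 to 0.19) and Siglecf (-0.030 to 0.24) when 1 library was left out, over which it kept its sign for Prg2 (-2.77 to -1.24), Alox15 (-1.15 to -0.13) and Cebpe (-0.77 to -0.11), and it turned for Cebpe (0.45) without 7, 9 and 19. Correlations turned for Prg2 with Ear2 (r = -0.0474) and Ear2 with Cebpe (-0.164) in OVA libraries alone, and for Ear1 with Alox15 (0.0319) and Ear2 with Cebpe (-0.0124) as log2(CPM + 2). The cause was not tested. No paired analysis was possible because libraries can be tied by their column names to a group, not to the replicate number of a title, so the fit with a replicate block was not run.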
